A study of Homo sapiens with 2 samples.

Results

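PRKDC, XRCC6, FANCA, PALB2 and DDB2 are genes of DNA repair, 5 of the 2792 genes of the table, represented here by all probe sets annotated to one of these symbols alone. There were 182 such probe sets among 45200, 101 for PRKDC, 47 for FANCA, 15 for PALB2, 10 for XRCC6 and 9 for DDB2. They were measured in HepG2, an established human hepatoma line grown on collagen, after transfection with a locked nucleic acid (LNA, a chemically stabilised antisense oligonucleotide) directed at the noncoding transcript TUC338 or with a control LNA. One array was hybridised for the knockdown and 1 for the control, so no difference below has a replicate check or a p-value, and culture, labelling and hybridisation cannot be told apart from the knockdown.

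Cells repair DNA by routes that deal with different damage. Broken ends are joined directly in non-homologous end joining, where the Ku heterodimer, of which XRCC6 (Ku70) is a subunit, binds the end and recruits the kinase encoded by PRKDC (DNA-PKcs). FANCA belongs to the Fanconi anaemia core complex, which acts on cross-links between the strands. PALB2 bridges BRCA1 and BRCA2 in homologous recombination, and DDB2 recognises ultraviolet photoproducts for nucleotide excision repair and is a known target of p53.

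The array has probe sets for many exons of a gene, so each gene was measured repeatedly on the same 2 arrays. Levels are log2 intensities, and a difference is knockdown minus control on that scale. The SDs given are over the probe sets of a gene. They show how far its exons moved alike and do not stand for replicate cultures. The knockdown array was the brighter one, with a median gene 0.28 higher (log2, 1.22-fold), so each difference is given as deposited and relative to this median gene. Hepatocyte transcripts were bright on both arrays. The 6 hepatocyte markers in the table, ALB, APOA2, APOB, APOH, FGG and TF, had mean levels at or above the percentile 91.6 of all genes. Of 2 fibroblast markers in the table, COL1A1 had a mean level at the percentile 20.2 and PDGFRB at 9.99. COL1A1 was lower by 0.90 ± 0.33 relative to the median gene, PDGFRB was higher by 0.22 ± 0.38, and their part in the results below was not tested.

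Relative to the median gene, PRKDC and FANCA were lower over nearly all of their probe sets, XRCC6 and DDB2 lay slightly below it, and PALB2 was split across its probe sets. The means were -0.42 ± 0.25 for PRKDC, -0.36 ± 0.25 for FANCA, -0.17 ± 0.23 for DDB2, -0.08 ± 0.12 for XRCC6 and 0.14 ± 0.43 for PALB2. As deposited they were -0.13, -0.08, 0.12, 0.21 and 0.42, in the same order, so XRCC6 and DDB2 were lower than the median gene yet higher than in the control. Neighbours in this order differed by 0.05, 0.20, 0.09 and 0.21, less than the larger SD of each pair. No member reached 1.5-fold from the median gene, which 5.87% of the 2742 genes with at least 4 probe sets did.

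The kinase gene PRKDC had the most probe sets. On the knockdown array their log2 intensities ran from 7.20 through a median of 10.004 to 12.12, and on the control array from 7.06 through 10.05 to 12.23. The ranges on the arrays overlapped almost entirely. Compared probe set by probe set, 69 of 101 were lower on the knockdown array as deposited, against a background of 24.8% of all probe sets with 1 symbol. Relative to the median gene 95 of 101 were lower, against 52.1%, and 26 were at least 1.5-fold lower, against 8.19%. None was at least 1.5-fold higher, against 6.15%. The mean corresponds to 74.98% of the control level relative to the median gene and 91.3% as deposited.

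**Figure D1:**
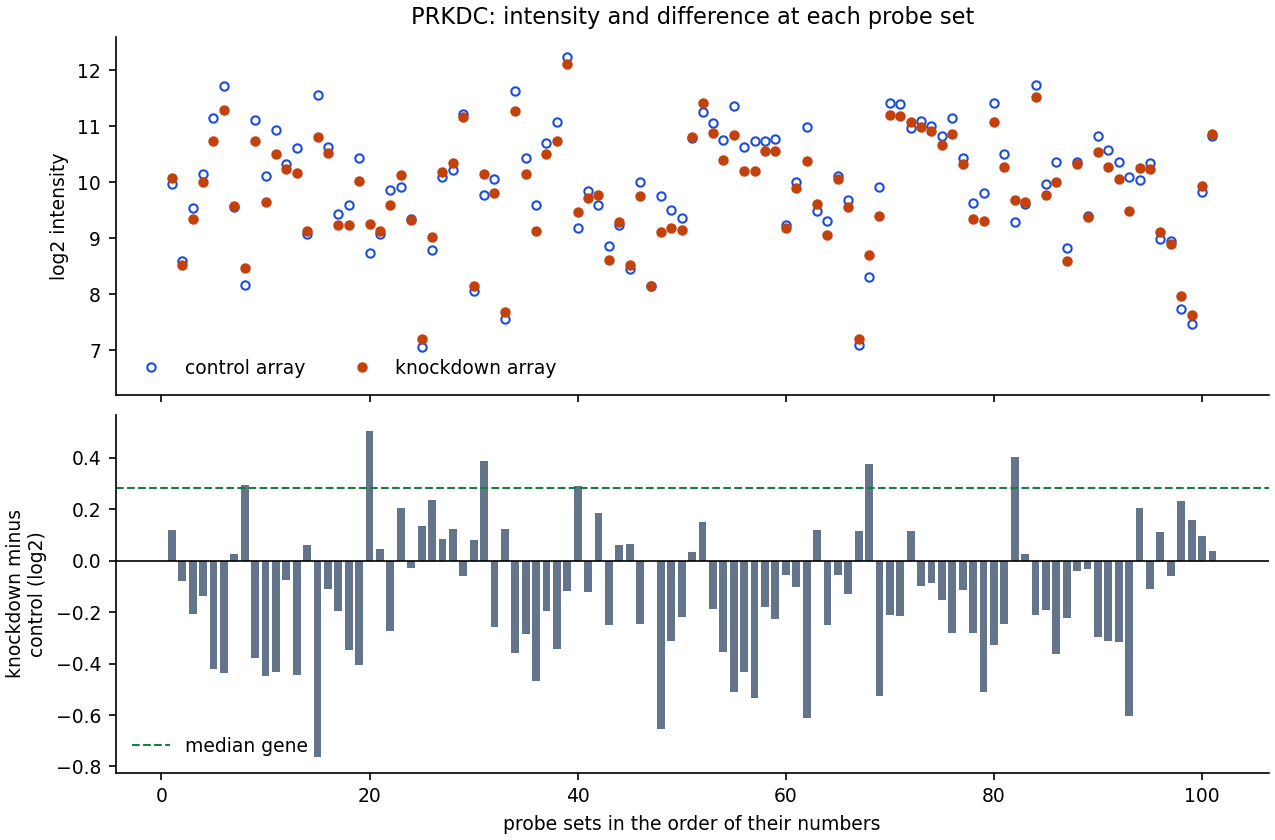
PRKDC probe sets in the order of their numbers. The upper panel shows log2 intensity on the control array (open) and the knockdown array (filled), and the lower panel the knockdown minus control difference as deposited, with the median gene at 0.28 dashed. Bars below the dashed line make up 95 of 101 and are found throughout the numbering.

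The lower values of PRKDC were spread over the whole numbering of its probe sets. From gene to gene, probe set numbers increased with genomic position on the strands that hold XRCC6, FANCA, PALB2 and DDB2 (Spearman rho of at least 0.999 over 25 to 69 genes a strand), but the strand of PRKDC and the order within a gene were not checked. In 5 successive stretches of 20 or 21 PRKDC probe sets the relative mean was -0.47, -0.33, -0.47, -0.45 and -0.36, and in each stretch at least 18 probe sets lay below the median gene. The rank correlation between the difference and the order was 0.04 over the 101 probe sets. The longest unbroken run below the median gene covered 27 probe sets, and no 2 successive ones lay above it. With 95 of the 101 below it, such runs say little about the order.

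The 3 lowest differences of PRKDC relative to the median gene were -1.05, -0.94 and -0.89. The first of these, probe set 3134070, had a log2 intensity of 10.80 in the knockdown against 11.56 in the control. At 3134116 it was 9.11 against 9.76, and at 3134137 it was 10.38 against 10.99. The 3 highest were 0.22 at 3134077, 0.12 at 3134172 and 0.10 at 3134089. Of the 101, 3134070 alone passed 2-fold, as did 1.13% of all probe sets with 1 symbol. Brighter probe sets of PRKDC moved further, with a relative mean of -0.48 ± 0.23 over the 51 at or above the gene's median level and -0.35 ± 0.26 over the 50 below it. Over the whole table the median difference as deposited fell from 0.30 in the dimmest of 5 equal level classes to 0.22 in the brightest, so level moved with the difference there too. After a loess fit on intensity, which removes this trend of the whole table alone, the PRKDC mean was -0.39. In the same level classes the relative mean of PRKDC was -0.13 over 5 probe sets in the dimmest and -0.49 over 50 in the brightest. The part of level in the PRKDC value was not tested.

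Genes with many probe sets were lower as a class. The 55 genes with at least 50 probe sets had a median of -0.25 on the relative scale, and 46 of them lay below the median gene. The medians of the 4 smaller size classes lay between -0.03 and 0.03. PRKDC was as low as or lower than all but 12 of these 55 genes, whereas over all 2742 genes 255, itself included, were at or below its mean. The number of probe sets thus moved with the PRKDC result, and its part in it was not tested.

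**Figure D2:**
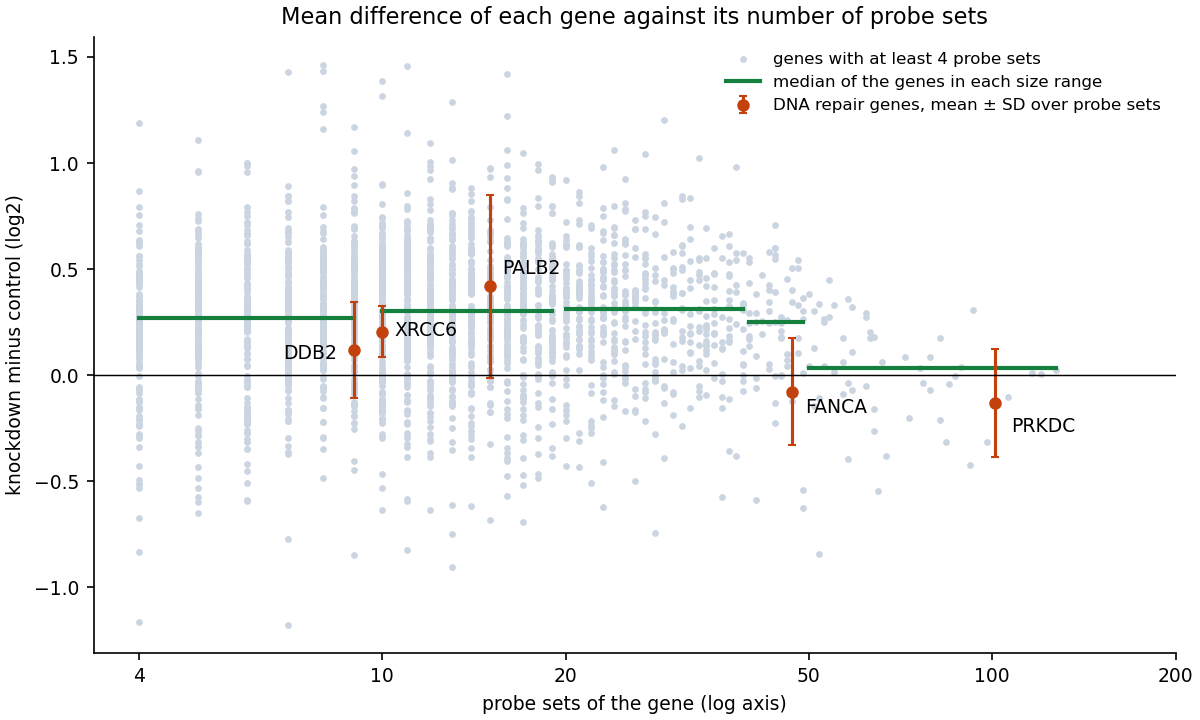
Mean knockdown minus control difference (log2, as deposited) of each gene with at least 4 probe sets against its number of probe sets on a log axis. Green lines are medians of the size classes, with the class of 50 and more at 0.03 and the others at 0.25 to 0.31. The DNA repair genes are shown as mean ± SD over probe sets, and PRKDC lies among the large, lower genes.

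XRCC6, the Ku70 partner of the kinase, moved little and evenly. Its 10 probe sets ran from 8.68 through a median of 11.76 to 13.16 on the knockdown array and from 8.41 through 11.49 to 13.08 on the control array. All 10 were higher on the knockdown array as deposited, by 0.03 to 0.39, where 24.8% of all probe sets with 1 symbol were lower, and 8 of 10 lay below the median gene, where the background is 52.1%. After quantile or loess normalization 60% lay below it. The SD of 0.12 was among the smallest, as 42 of 2742 genes had one as small or smaller. XRCC6 was also among the brightest genes, with a mean level at the percentile 97.8. Over the whole table the SD of all differences was 0.35 in the brightest level class and 0.40 to 0.42 in the others. Probe set 3946995 showed the largest difference of the gene, with a log2 intensity of 11.81 in the knockdown against 11.42 in the control, and 3946990 the smallest, with 12.17 against 12.14. The PRKDC mean was 0.34 below that of XRCC6, which is more than the SD of either gene over its probe sets. The size classes of these genes also differed, with a median of -0.25 for genes with at least 50 probe sets and 0.02 for those with 10 to 19, and the part of gene size in the gap was not tested.

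FANCA and PALB2 both lie on the minus strand of chromosome 16 and stood at opposite sides of the median gene. For this reason the 250 bases before the annotated start of each are shown, 5′ to 3′ along the gene, from RefSeq (GRCh38.p14), at chr16:89816648-89816897 for FANCA and chr16:23641311-23641560 for PALB2. Capitals mark letters that match a CCAAT box (CCAAT), a GC box (GGGCGG) or an ETS core (CCGGAAG) on either strand.
FANCA: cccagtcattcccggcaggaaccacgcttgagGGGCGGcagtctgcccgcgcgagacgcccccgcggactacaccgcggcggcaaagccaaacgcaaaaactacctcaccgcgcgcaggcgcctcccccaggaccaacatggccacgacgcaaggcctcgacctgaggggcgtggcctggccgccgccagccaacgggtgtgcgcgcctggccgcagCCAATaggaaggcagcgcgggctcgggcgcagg
PALB2: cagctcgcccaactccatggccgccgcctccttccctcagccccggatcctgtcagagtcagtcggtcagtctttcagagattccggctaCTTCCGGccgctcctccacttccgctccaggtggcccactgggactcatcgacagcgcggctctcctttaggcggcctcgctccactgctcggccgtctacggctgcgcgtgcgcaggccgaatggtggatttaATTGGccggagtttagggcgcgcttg
Each holds 1 CCAAT match, with 28 bases between the match and the start in FANCA and 21 in PALB2. Of 35116 windows of the same length before annotated starts, 32% hold this motif. FANCA has 1 GC box, present in 42.6% of windows, and PALB2 has 1 ETS core, present in 8.52%. No exact match to the palindromic NRF1 core or to an E2F site (TTTGGCGC or TTTCCCGC) was found in either window. Of all windows 1.03% and 1.93% hold these. Forms that differ from the NRF1 core by 1 letter, such as one in the PALB2 window, were not searched. Whether FANCA or PALB2 holds an NRF1 site was therefore not tested. The 4 members with an entry, these and XRCC6 and DDB2, had 1, 1, 1 and 3 CCAAT matches, counting for DDB2 the first of its 2 listed starts; the window of the second had none. These matches describe the letters in the window and were not compared with the differences.

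Of the 47 probe sets of FANCA, 16 were at or above the table's median level of 8.85. Their log2 intensities ran from 7.0004 through a median of 8.48 to 10.34 in the knockdown and from 6.88 through 8.69 to 10.43 in the control. As deposited 33 of 47 were lower on the knockdown array, and relative to the median gene 44 of 47 were, against the same backgrounds of 24.8% and 52.1%. In all, 5 probe sets, 10.6% of the gene, were at least 1.5-fold lower and 1 was at least 1.5-fold higher, against 8.19% and 6.15% of all probe sets.

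Brighter probe sets of FANCA agreed more closely with each other. The 24 at or above the gene's own median level had a relative mean of -0.46 ± 0.12, and the 23 below it one of -0.26 ± 0.31. All 16 at or above the table's median level lay below the median gene. The lowest relative values were -0.79 at probe set 3705011, with log2 intensities of 7.98 in the knockdown and 8.49 in the control, -0.76 at 3704984 and -0.75 at 3705031. The highest was 0.59 at 3705048, where the control value of 6.88 was the lowest of the gene. It was followed by 0.06 at 3704996 and 0.01 at 3705028. Without 3705048 the mean was -0.38 ± 0.21. In 3 successive stretches of the numbering the means were -0.42, -0.42 and -0.24, and 14 of 15 probe sets of the last stretch were still below the median gene.

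**Figure D3:**
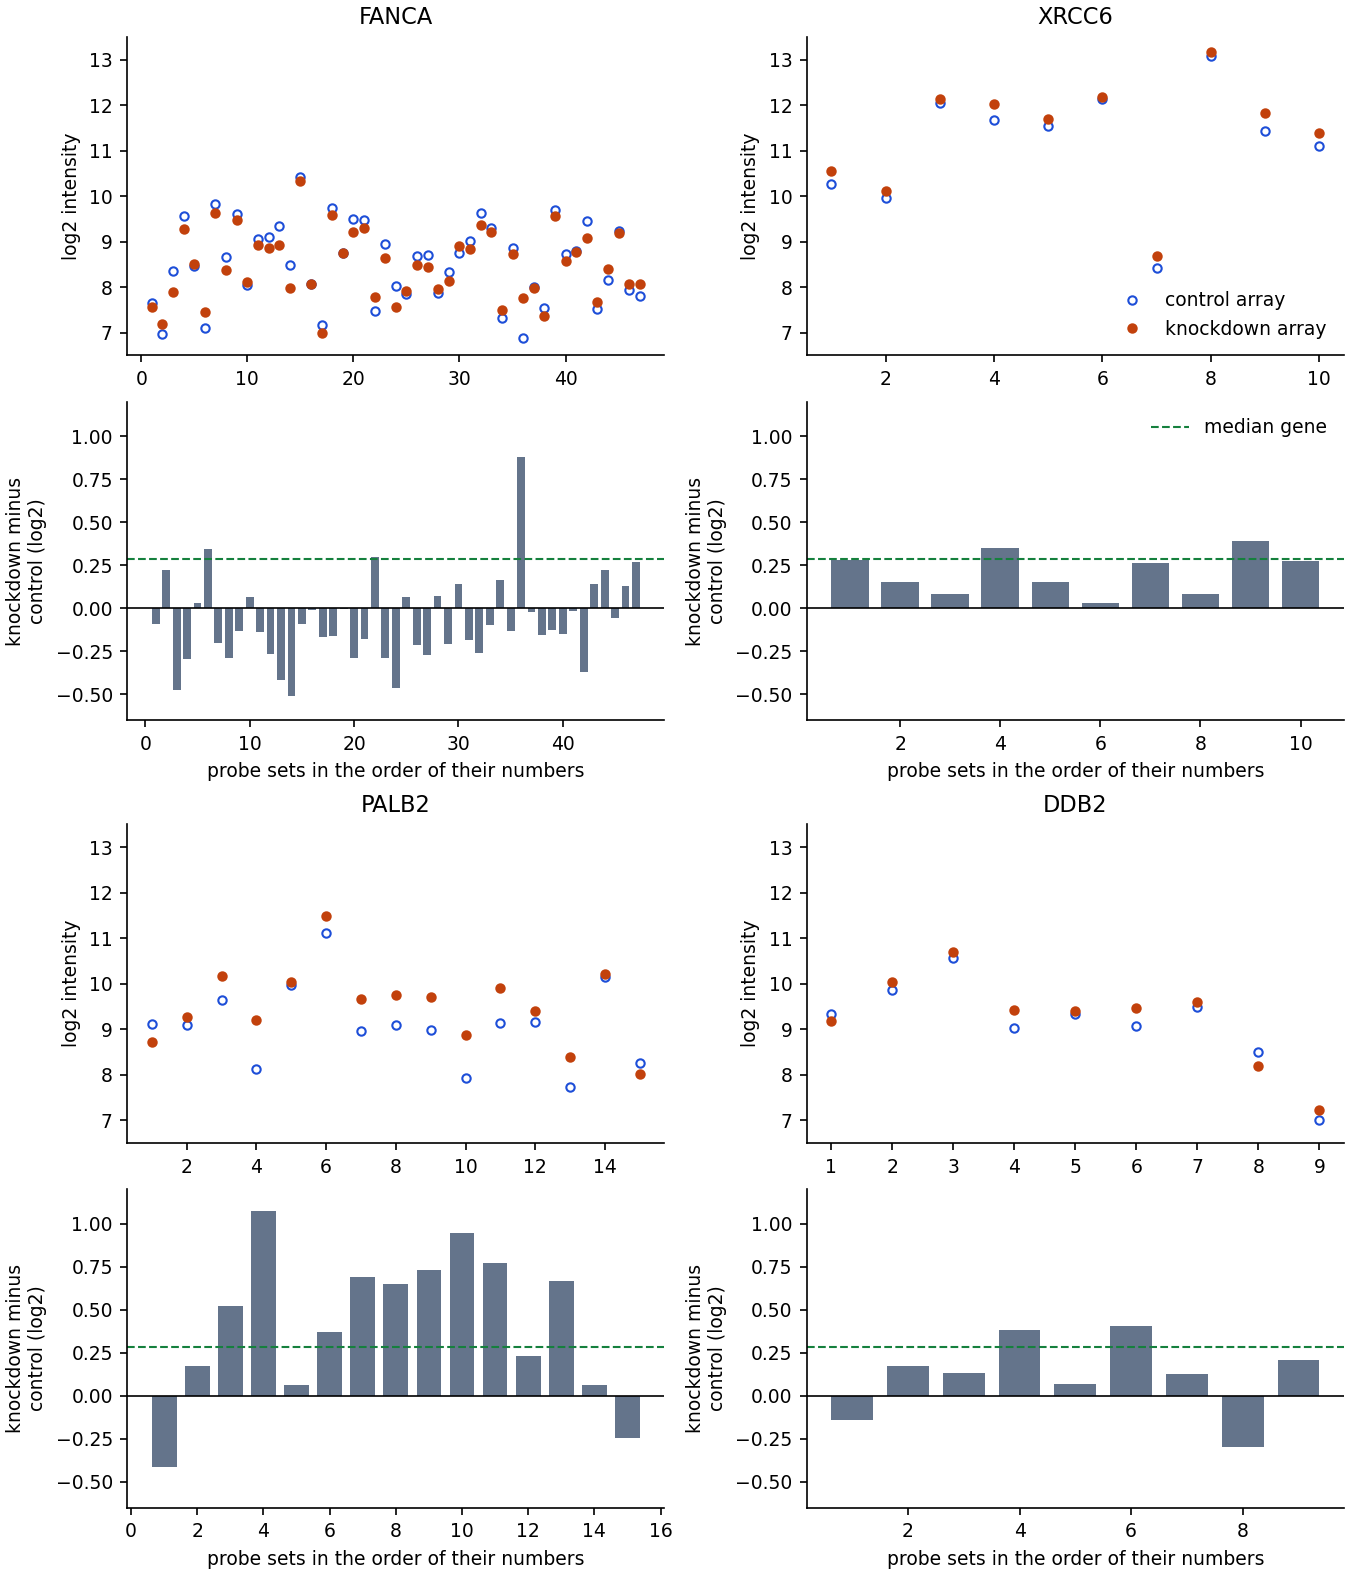
FANCA, XRCC6, PALB2 and DDB2, with probe sets in the order of their numbers. For each gene the upper panel gives log2 intensity on the control (open) and knockdown (filled) arrays and the lower panel the difference as deposited, with the median gene at 0.28 dashed. FANCA lies mostly below the dashed line and PALB2 rises above it in its middle.

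PALB2 showed the widest spread of the 5 genes. Its 15 probe sets ran from 8.01 through a median of 9.66 to 11.49 in the knockdown and from 7.72 through 9.09 to 11.12 in the control. As deposited 2 of 15 (13.3%) were lower on the knockdown array, against 24.8% of all probe sets with 1 symbol, and 6 of 15 (40%) lay below the median gene, against 52.1%. The SD of 0.43 was large for this array, with 2636 of 2742 genes having one as small or smaller. The highest relative values were 0.79 at probe set 3685337, with log2 intensities of 9.20 in the knockdown against 8.13 in the control, 0.66 at 3685347, with 8.88 and 7.94, and 0.49 at 3685348, with 9.90 and 9.13. The lowest were -0.70 at 3685331, with 8.71 and 9.12, -0.53 at 3685355, with 8.01 and 8.26, and -0.22 at 3685354, with 10.21 and 10.15.

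The values followed the numbering in part. The first and the last probe set were the lowest and the only ones below the control. The sixth to the eleventh formed an unbroken run of 6 above the median gene, with a mean of 0.41 ± 0.19, while the remaining 9 had a mean of -0.05 ± 0.46. The run was picked after its values were seen, so its mean above that of the rest was fixed by the choice. High values also occurred outside it, 0.79 at 3685337 and 0.38 at 3685350. In 3 successive stretches of 5 probe sets, set by number alone, the relative means were 0.00028 ± 0.55, 0.39 ± 0.21 and 0.01 ± 0.42. The middle value of all PALB2 probe sets was 0.24 on the relative scale.

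DDB2 had 9 probe sets, from 7.21 through a median of 9.42 to 10.69 in the knockdown and from 7.01 through 9.33 to 10.56 in the control. As deposited 2 of 9 (22.2%) were lower on the knockdown array, which is near the 24.8% of all probe sets with 1 symbol, and 7 of 9 (77.8%) lay below the median gene, against 52.1%. The lowest relative values were -0.58 at probe set 3329681, with log2 intensities of 8.19 in the knockdown against 8.49 in the control, and -0.42 at 3329658, with 9.19 and 9.33. The next was -0.22 at 3329668. The highest were 0.12 at 3329678, with 9.47 and 9.06, 0.10 at 3329667 and -0.08 at 3329682. No DDB2 probe set was 1.5-fold from the median gene.

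DDB2 was also read beside other p53 targets. Of 21 listed, 6 were in the table and none was 1.5-fold from the median gene by its mean, against 5.87% of all genes; 2 lay above it and 4 below, with a list median of -0.07 against 0.0020 for all genes. The kinase gene PLK3 was highest at 0.50 ± 0.23, with all of 11 probe sets above the median gene. The death receptor gene TNFRSF10B was at 0.26 ± 0.24. FDXR, which encodes ferredoxin reductase, was lowest at -0.30 ± 0.19 with all of 8 below it, and the stress gene SESN1 was at -0.14 ± 0.24. The proapoptotic BAX was at -0.0018 ± 0.37. The targets thus lay on both sides, with DDB2 on the lower one.

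The other repair genes were split around the median gene as well. Of 145 genes in 8 repair lists, 39 were in the table, the 5 members included. By means over probe sets 22 lay above the median gene and 17 below, where 49.7% of all genes were below, and their median was 0.02 against 0.0020 for all genes. None was 1.5-fold from it, against 5.87%. As deposited 5 were at least 1.5-fold higher, 12.8% against 13.1% of all genes, and none was as much lower, against 0.912%. As deposited 30 of 39 (76.9%) lay above 0 and 9 below, where 16.6% of all genes were below. The split around the median gene and the share at least 1.5-fold higher as deposited were close to the background. The share below 0 includes PRKDC and FANCA, and the members were chosen with earlier results of these data known. Without the 5 members, 7 of 34 genes lay below 0 as deposited. The absence of genes 1.5-fold from the median gene depended on the summary, as 3 passed with medians over probe sets. Whether either share departed from the background was not tested.

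In end joining, 4 of 6 genes lay below the median gene, where 49.7% of all genes did. TP53BP1, a chromatin-bound factor that favours end joining, was at -0.36 ± 0.26 over 27 probe sets. The repair polymerase gene POLL was at 0.36 ± 0.26, with all of 12 probe sets above the median gene. APTX, which removes AMP left at DNA ends, was the highest of all repair genes at 0.56 ± 0.47. Low and high values therefore occurred within the list that holds PRKDC and XRCC6. NHEJ1, a ligation cofactor, was at -0.16 ± 0.19. XRCC5, the second Ku subunit, was not analysed here, nor was DDB1, the partner of DDB2.

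In the Fanconi anaemia list FANCA was the one gene of 5 with a mean below the median gene, where 49.7% of all genes were. FANCF, another core complex subunit, was at 0.12 ± 0.14 and FAAP20, which binds FANCA, at 0.09 ± 0.50 over 4 probe sets. Of these 4, 3 lay below the median gene. FANCI, a component of the complex that is ubiquitinated downstream, was at 0.02 ± 0.25 over 31 probe sets, 15 of them below the median gene. FAN1, also of this list, was at 0.03 ± 0.25. FANCI and FAN1 thus lay close to the median gene. FANCA and FANCI had mean levels at the percentiles 35.5 and 45.9 of all genes. FAN1, FAAP20 and FANCF were dimmer, at 13.9, 8.10 and 6.86. The part of level in the contrast with FANCA was not tested. In homologous recombination 6 of 7 lay above the median gene and 1 below. Of those above, WRN, RAD52 and RAD50 were close to it, at 0.0040 ± 0.24, 0.02 ± 0.30 and 0.04 ± 0.21. Both partners of PALB2 were on its side, BRCA1 with 0.21 ± 0.29 over 24 probe sets and BRCA2 with 0.30 ± 0.31 over 30. BRCA1 had 6 of 24 and BRCA2 6 of 30 probe sets below the median gene, where 52.1% of all probe sets with 1 symbol were, and none of the 54 was lower than in the control as deposited, where 24.8% were. Both were dim, with mean levels at the percentiles 13.3 and 3.28 of all genes. Other repair genes were dim as well, among them POLL at 7.95, ATR at 6.02, TP53BP1 at 4.74 and ERCC6 at 0.40. RPA1, a subunit of the single-strand binding complex, was the gene of the list below the median gene, at -0.42 ± 0.32. Of its 15 probe sets 14 were on the low side.

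In nucleotide excision repair 3 of 7 lay above the median gene and 4 below, against 49.7% of all genes below. RAD23B, which stabilises the damage sensor XPC, was lowest of all repair genes at -0.56 ± 0.29, all of its 14 probe sets being under the median gene and 11 under the control. GTF2H3, a subunit of the helicase complex TFIIH, was at 0.38 ± 0.26 with all of 13 above it. The transcription-coupled repair gene ERCC6 was at 0.24 ± 0.23. DDB2 lay between these extremes.

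In base excision repair 2 of 5 lay above the median gene and 3 below. For this and the next 2 lists the background is 49.7% of all genes below. The glycosylase gene NEIL2 was at -0.56 ± 0.28 and the endonuclease gene APEX2 at -0.36 ± 0.25. The polymerase gene POLB, at 0.43 ± 0.33, and the uracil glycosylase gene UNG, at 0.38 ± 0.28, were higher. Of 4 damage signalling genes 3 lay below the median gene, the kinase genes ATM at -0.29 ± 0.26 and ATR at -0.03 ± 0.29 and the ATR activator TOPBP1 at -0.22 ± 0.25. ATM and ATR belong to the same kinase family as PRKDC. The ubiquitin ligase gene RNF168 was at 0.16 ± 0.25. In translesion synthesis, which copies past damage, the polymerase gene POLH was at -0.31 ± 0.29, MAD2L2 at 0.09 ± 0.23 and POLI at 0.24 ± 0.27. REV1, at 0.02 ± 0.24, and REV3L, at 0.03 ± 0.22, lay close to the median gene. By their means 4 of 5 genes in the list lay above it. No mismatch repair gene was analysed here.

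**Figure D4:**
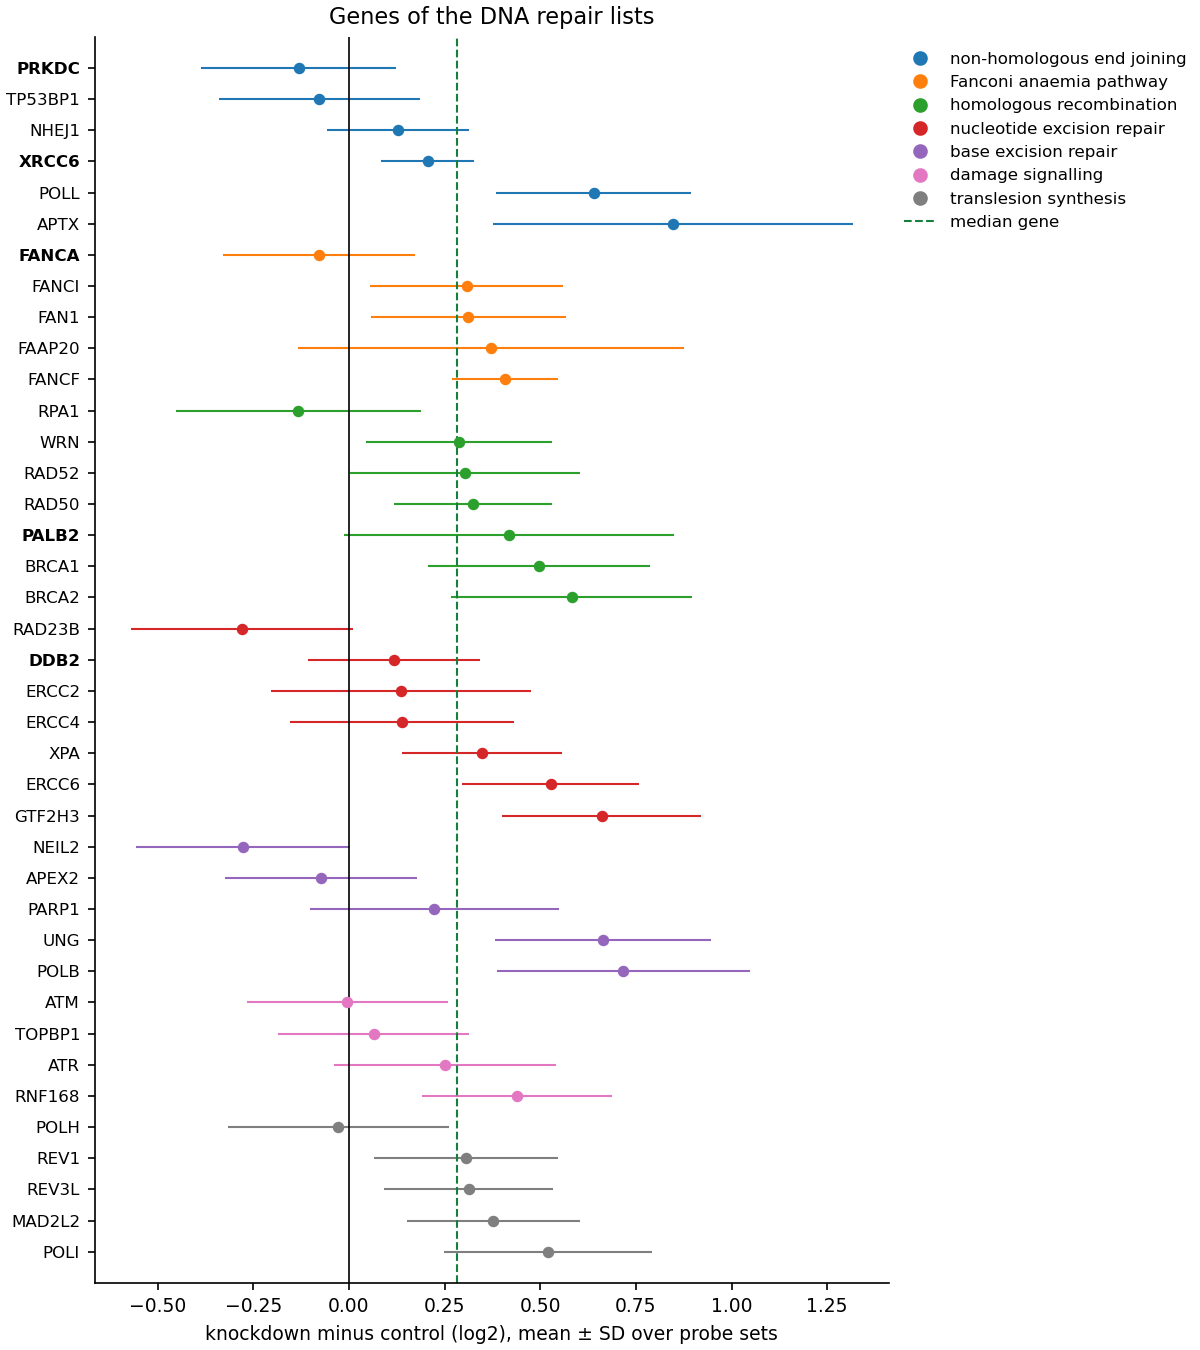
Mean knockdown minus control difference (log2, as deposited) ± SD over probe sets for the 39 genes of the repair lists, coloured by list, with the members in bold and the median gene at 0.28 dashed. Of these genes 22 lie to the right of the dashed line and 17 to the left, and 9 lie left of 0.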

How the data were processed

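The authors deposited natural log values of 45200 probe sets for 2 arrays. Neither the normalization nor the summary method nor the build is given in these sources, and the scale was settled from the numbers. Exponentials of the values under 2000 piled up on multiples of 0.5 plus 1 residue, with 1154 and 1167 values in the fullest bin against means of 82.7 and 84.2, which powers of 2 did not show (117 and 115 against 90.4). Values were divided by the natural log of 2. Groups came from the transfection label. Of the probe sets 42575 had 1 symbol, and older symbols were updated through the RefSeq table, which left 2792 genes. The median gene is the median of gene means over probe sets. Counts of genes used those with at least 4 probe sets. With 1 array per group no test was run. Named genes were the members, their partners, and up to 2 genes at each end of each repair list; further list genes were added after their values were seen. The members and lists were chosen with earlier results of these data known. Probe set coordinates were not used. The summary was tested on simulated data. Python 3.11.15, pandas 2.3.3 and statsmodels 0.14.6 were used. Alternatives were another scale, centring, quantile, loess (span 0.3), a level filter, the median or brightest probe set, and leaving out repeated values.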

Additional observations from a re-analysis of the deposited data

How the results depend on the processing

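Values are relative to the median gene unless called deposited. Of 67 alternative values, 56 kept their direction and moved by less than the SD over probe sets (for shares and counts, by less than 1.5 times). The choice that mattered for the members was the offset between the arrays. Without centring the means were -0.13 for PRKDC and -0.078 for FANCA, and the sign turned to 0.21 for XRCC6 and 0.12 for DDB2. The share of probe sets below 0 was then 0% for XRCC6, 13.3% for PALB2 and 22.2% for DDB2, against 80%, 40% and 77.8% below the median gene. Over the other alternatives PRKDC ranged from -0.43 to -0.29 FANCA from -0.47 to -0.25, PALB2 from 0.09 to 0.24, DDB2 from -0.17 to -0.07 (nearest to 0 at the brightest probe set) and XRCC6 from -0.12 to -0.04 (nearest to 0 after loess). The count of repair genes at least 1.5-fold away, 0 in the main setting, was 5 as deposited (APTX, POLB, UNG, GTF2H3 and POLL), 1 with bright probe sets alone (RAD23B), 3 with medians (RAD23B, NEIL2 and APTX) and 2 with the brightest probe set (RAD23B and APTX). No paired analysis was possible because each group has 1 array. Dim probe sets limit FANCA most, as 31 of its 47 lay below the median level.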

Other observations

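Genes with a mean difference nearest to that of a member were looked up among the 1804 genes with at least 10 probe sets, 3 for each member. The farthest of them, CRAT, was 0.000753 (log2) from its member. Over 2 arrays this likeness is of a single number. For PRKDC they were PCYT2, SFPQ and RPA1, for FANCA APPL2, TP53BP1 and MYO18A, for DDB2 IGF2BP2, MED13 and CRAT, for XRCC6 LRBA, ITSN1 and USP54, and for PALB2 KAT7, SPATA20 and KYAT3. Their SDs over probe sets ran from 0.17 for SFPQ to 0.36 for APPL2.

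The rank correlation between difference and level was -0.42 over the 101 probe sets of PRKDC, -0.47 over the 47 of FANCA, -0.49 over the 10 of XRCC6, -0.15 over the 15 of PALB2 and 0 over the 9 of DDB2. The probe sets of a gene share both arrays.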
